A study of Mus musculus with 12 samples.

Results

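A set of 7 genes that control the level of malonyl-CoA were followed in chondrocytes, the cells that lay down the matrix of cartilage, taken from mice as primary cultures. They were taken by symbol: Acly, Acaca, Acacb, Acsf3, Mlycd, Fasn and Mcat. Each of the 7 symbols matched 1 Ensembl ID among the 57010 IDs counted, and all 7 passed the filter on low counts that left 14253 genes for testing. The list is defined by the enzymes' roles and was drawn up with earlier results of these data known.

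Malonyl-CoA is made in the cytosol when acetyl-CoA carboxylase adds a carboxyl group to acetyl-CoA, and it is the building block from which fatty acids are extended. It also blocks the entry of long-chain fatty acids into mitochondria at carnitine palmitoyltransferase, and it is the donor of the malonyl group found on protein lysines. SIRT5, a mitochondrial and cytosolic sirtuin, removes malonyl, succinyl and glutaryl groups from lysines. The study asked how SIRT5 and its F101L form act on chondrocyte metabolism through lysine malonylation. RNA reports only the transcripts of these enzymes, and neither malonyl-CoA nor malonylation was measured in these files.

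Poly(A) RNA was sequenced from 12 libraries in 3 groups of 4: Control, cells transfected with a wild-type plasmid (label WT) and cells transfected with a plasmid for the mutant (label SIRT5F101L). All 12 carry the genotype label wild type, so the mutation is on the plasmid and not in the cells' genome. What the Control cells received, and the age, sex and strain of the mice, are not given in the sources used here. Nothing in the labels says that libraries of a group came from separate mice or cultures, so p-values measure only the spread between these libraries. Levels are given as CPM, a count relative to the total of its library after TMM scaling (a correction for differences in RNA composition). A gene was called at an adjusted p under 0.05, from the quasi-likelihood test of edgeR with p-values adjusted by the Benjamini-Hochberg method over all 14253 genes.

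Total counts ran from 15095357 to 24242139 per library. Sirt5 itself had 9 to 16 counts in Control, 1 to 9 in libraries labelled WT and 9 to 19 in those labelled SIRT5F101L, and neither plasmid group was called against Control (log2 fold change -0.86 ± 0.49, SE, for WT and 0.034 ± 0.45 for SIRT5F101L, at adjusted p-values from edgeR of 0.143 and 0.954; exact 2-sided permutation p of 0.0571 and 0.886, or 0.129 and 0.886 adjusted over 3 comparisons). WT replicate 4 held the single count, and without it the log2 fold change was -0.48 for WT against Control, while that of SIRT5F101L against WT went from 0.90 to 0.52. Of its longest transcript, 43.0% has near-identical copies elsewhere, and whether reads from the plasmids would be counted to it is not given in the sources used here, so Sirt5 does not check the plasmid labels. SIRT5F101L replicate 1 stood apart from the other libraries with its label on the second principal component (20.3, against -23.5 to -17.0), where libraries labelled WT lay at -1.07 to 20.1. The dependence of level on transcript length, as the slope between their log2 values, was also lower in it (0.586, against 0.726 to 0.748), while Control libraries lay at 0.579 to 0.601 and libraries labelled WT at 0.609 to 0.697. Where the call of 1 of the 7 genes changes without that library, or with the length trend removed, that value is given. Replicate numbers only name the libraries of a group in the order of their records, since the labels carry none. Among chondrocyte markers, Col2a1 and Comp made up most of a summed level of 7998 to 10013 CPM over 10 markers in Control, 2252 to 2403 CPM in WT and 1790 to 2012 CPM in SIRT5F101L. The lowest were Snorc at 2.77, 0.810 and 0.383 CPM as group means and Matn1 at 2.15, 0.832 and 0.543 CPM. The rest had Control means from 44.7 CPM (Matn3) to 173 CPM (Col11a2). Acan, Sox9 and Hapln1 were at 185, 124 and 97.8 CPM in WT and at 143, 113 and 93.1 CPM in SIRT5F101L. Matn3, Col9a1 and Col11a2 were at 3.86, 8.90 and 26.1 CPM in WT and at 2.67, 6.04 and 16.8 CPM in SIRT5F101L.

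The proximal promoters of 3 of the genes are shown because Fasn and Acly rose together while Mlycd fell. Each is the 250 bases before the RefSeq start on GRCm38.p6, an older build than the GRCm39 that the submitters' processing notes name. Acly lies on the minus strand, with its promoter at chr11:100528001-100528250. Fasn is also on the minus strand, at chr11:120824548-120824797. Mlycd is on the plus strand, at chr8:119394644-119394893. Capitals mark matches, on either strand, to CCAAT (the CCAAT box) and GGGCGG (the GC box).

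Acly: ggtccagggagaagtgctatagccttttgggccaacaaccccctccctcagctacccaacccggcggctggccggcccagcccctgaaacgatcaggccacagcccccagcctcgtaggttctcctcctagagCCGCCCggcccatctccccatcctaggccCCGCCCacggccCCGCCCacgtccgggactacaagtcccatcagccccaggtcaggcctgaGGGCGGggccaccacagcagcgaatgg

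Fasn: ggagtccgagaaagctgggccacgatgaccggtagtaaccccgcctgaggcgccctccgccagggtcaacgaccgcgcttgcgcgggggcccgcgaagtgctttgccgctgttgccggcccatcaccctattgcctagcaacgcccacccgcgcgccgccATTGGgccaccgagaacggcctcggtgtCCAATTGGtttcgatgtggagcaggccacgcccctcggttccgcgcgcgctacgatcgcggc

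Mlycd: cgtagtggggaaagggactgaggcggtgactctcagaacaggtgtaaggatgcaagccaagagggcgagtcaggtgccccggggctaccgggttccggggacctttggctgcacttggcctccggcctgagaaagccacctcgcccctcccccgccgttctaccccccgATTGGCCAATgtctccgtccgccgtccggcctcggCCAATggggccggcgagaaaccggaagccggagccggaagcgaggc

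The promoters of the genes that rose together did not share a match. Acly held 4 matches to GGGCGG and 0 to CCAAT, whereas Fasn held 3 matches to CCAAT, of which a pair overlap each other, and 0 to GGGCGG. Mlycd, which fell, held 3 matches to CCAAT and 0 to GGGCGG. Among 32851 RefSeq promoter windows of the same length, 33.85% held CCAAT and 32.74% held GGGCGG. Neither CACGTG (an E-box, in 6.021% of windows) nor TCACNCCAC (a sterol regulatory element, in 1.053%) was found in any of the 6 member promoters in the table, searched on both strands. Mcat had no entry there, the windows of Acaca and Acacb lie inside their gene models rather than at the outermost start, and that of Mlycd reaches into the first bases of its model. These matches describe letters in a short window and are not evidence of binding.

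In libraries labelled WT, 2 of the 7 genes rose (Acly and Fasn), 2 fell (Mlycd and Acacb) and 3 were not called. Against Control, 56.8% of all tested genes were called in this comparison, 28.7% higher and 28.1% lower, so 4 of 7 is a share near the background. In libraries labelled SIRT5F101L, 3 rose (Acly, Fasn and Acaca), 3 fell (Mlycd, Acacb and Acsf3) and Mcat was not called, beside 60.7% of all genes, 30.0% higher and 30.7% lower. The groups did not overlap for 4 of the 7 in WT, beside 53.5% of all genes, and for 3 of the 7 in SIRT5F101L, beside 51.3%. The median log2 fold change over the 7 genes was 0.12 for WT and -0.041 for SIRT5F101L, beside -0.013 and -0.017 over all genes tested. Both comparisons use the same 4 Control libraries. The levels of all 7 genes are shown by library in the plot of CPM.

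**Figure D1:**
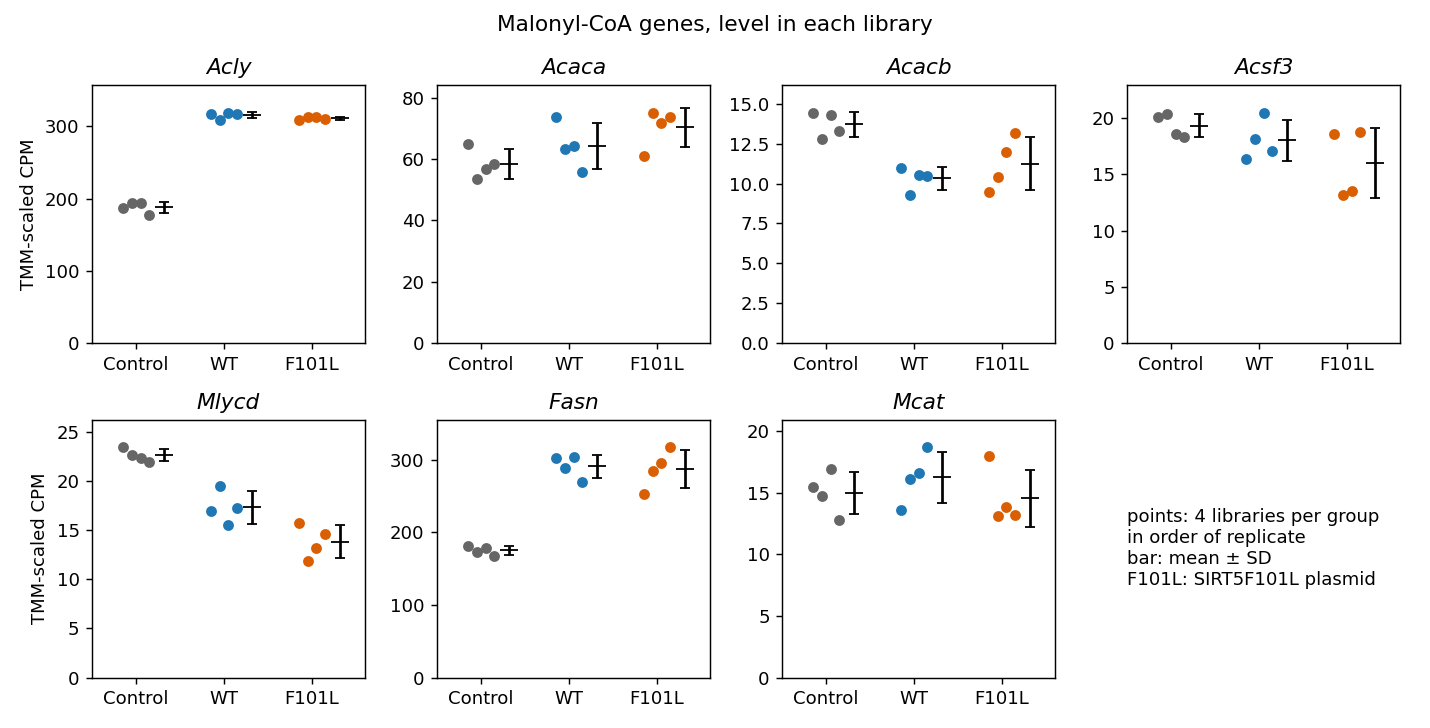
Level of each gene (TMM-scaled CPM, linear axis from 0) in the 12 libraries. Points are libraries in order of replicate within Control, WT and SIRT5F101L (F101L), and bars are mean ± SD over 4 libraries. Acly and Fasn lie higher in all 8 plasmid libraries than in any Control library, and Mlycd lies lower in all 8.

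Acly (ENSMUSG00000020917, GRCm38 chr11:100476353-100528000) encodes ATP-citrate lyase, which splits exported citrate into the cytosolic acetyl-CoA that carboxylase uses. Its level was 187, 194, 193 and 177 CPM in Control replicates 1 to 4. It was 317, 309, 319 and 317 CPM in WT, and 309, 313, 312 and 310 CPM in SIRT5F101L. No plasmid library came near the Control range, and the 8 plasmid libraries lay within 309 to 319 CPM of each other. The mean was 188 ± 7.70 CPM in Control (SD, n = 4), 316 ± 4.38 in WT and 311 ± 1.85 in SIRT5F101L. Acly rose 1.68-fold in WT (log2 fold change 0.75, SE 0.05, edgeR adjusted p = 1.27e-10) and 1.66-fold in SIRT5F101L (0.73, SE 0.05, edgeR adjusted p = 1.88e-10). Between the plasmid groups the difference was -0.022 on the log2 scale, with a 95% interval of -0.13 to 0.084.

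Acaca (ENSMUSG00000020532, GRCm38 chr11:84129672-84401651) encodes acetyl-CoA carboxylase 1, the cytosolic enzyme whose malonyl-CoA feeds fatty acid synthesis. Control libraries held 65.1, 53.5, 56.7 and 58.4 CPM, WT libraries 73.8, 63.2, 64.3 and 55.8 CPM, and SIRT5F101L libraries 61.0, 75.2, 71.8 and 73.7 CPM. The groups overlapped, with Control replicate 1 above SIRT5F101L replicate 1 and above WT replicates 2, 3 and 4. Acaca was called in SIRT5F101L, at 1.21-fold (log2 fold change 0.27, SE 0.09, edgeR adjusted p = 0.0112), and not in WT (0.14, edgeR adjusted p = 0.183, 95% interval -0.043 to 0.32). The rise was no longer called when each library's trend on transcript length was removed (0.011, edgeR adjusted p = 0.891). Acaca has a longest transcript of 9513 bases, among the longer ones of the set. Without SIRT5F101L replicate 1 the log2 fold change was 0.33.

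Counts of Acaca carry a further uncertainty. Gm5182, on chromosome 12 in the reference annotation, matches 64.3% of the longest Acaca transcript at 95% identity or more, so reads from that stretch could be assigned to either gene or dropped. Gm5182 was listed at 8.80 ± 1.08 CPM in Control (SD, n = 4), 10.8 ± 1.08 in WT and 11.1 ± 1.69 in SIRT5F101L. Its log2 fold changes were 0.30 (edgeR adjusted p = 0.0584) and 0.34 (edgeR adjusted p = 0.0275). Whether those counts came from the Acaca transcript was not tested.

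Acacb (ENSMUSG00000042010, GRCm38 chr5:114146535-114250761) encodes acetyl-CoA carboxylase 2, the form at the outer mitochondrial membrane whose malonyl-CoA inhibits carnitine palmitoyltransferase 1. The libraries held 14.5, 12.8, 14.3 and 13.3 CPM in Control, 10.95, 9.30, 10.6 and 10.5 CPM in WT, and 9.46, 10.4, 11.99 and 13.2 CPM in SIRT5F101L. Every WT library was below every Control library, whereas SIRT5F101L replicate 4 lay inside the Control range. Acacb fell to 0.754 of Control in WT (log2 fold change -0.41, SE 0.11, edgeR adjusted p = 0.00381) and to 0.822 in SIRT5F101L (-0.28, SE 0.11, edgeR adjusted p = 0.0316). The call in SIRT5F101L was lost in 7 of 20 alternatives. Without SIRT5F101L replicate 1 the log2 fold change was -0.21 (edgeR adjusted p = 0.109), and without SIRT5F101L replicate 2 or Control replicate 1 or 3 it was -0.25 to -0.26 (edgeR adjusted p of 0.0721 to 0.0810). The other 3 were no filter (-0.29, adjusted p = 0.0538), DESeq2 (-0.27, adjusted p = 0.0562) and a fit of only the 8 libraries compared (-0.26, adjusted p = 0.0683). With the length trend removed, the fall was larger, at -0.54 and -0.54. The difference between the plasmid groups was 0.12, with a 95% interval of -0.11 to 0.36.

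Acsf3 (ENSMUSG00000015016, GRCm38 chr8:122775486-122817880) encodes the mitochondrial acyl-CoA synthetase that activates malonate to malonyl-CoA inside mitochondria. Its level was 20.1, 20.4, 18.6 and 18.3 CPM in Control and 16.4, 18.2, 20.5 and 17.1 CPM in WT. SIRT5F101L libraries split, with 13.1 and 13.6 CPM in replicates 2 and 3 and 18.6 and 18.8 CPM in replicates 1 and 4, the latter pair inside the Control range. Acsf3 passed the threshold in SIRT5F101L by very little (log2 fold change -0.27, SE 0.12, edgeR adjusted p = 0.049984) and lost the call in 9 of the 12 fits that left out a library. With the length trend removed it was at -0.20 and not called (edgeR adjusted p = 0.124), and without SIRT5F101L replicate 1 it was at -0.35 and called (edgeR adjusted p = 0.00762). In WT the log2 fold change was -0.10 (edgeR adjusted p = 0.468, 95% interval -0.35 to 0.14).

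Mlycd (ENSMUSG00000074064, GRCm38 chr8:119394878-119411102) encodes malonyl-CoA decarboxylase, which returns malonyl-CoA to acetyl-CoA and is the enzyme of this set that removes it without building fatty acids. Control libraries held 23.4, 22.7, 22.4 and 21.96 CPM. Libraries labelled WT held 17.0, 19.5, 15.5 and 17.2 CPM, and those labelled SIRT5F101L held 15.7, 11.8, 13.2 and 14.6 CPM. Neither plasmid group overlapped Control, while SIRT5F101L replicate 1 lay just inside the range of WT. The mean went from 22.6 ± 0.612 CPM in Control (SD, n = 4) to 17.3 ± 1.66 in WT and 13.8 ± 1.70 in SIRT5F101L. Mlycd fell to 0.765 of Control in WT (log2 fold change -0.39, SE 0.10, edgeR adjusted p = 0.00181) and to 0.613 in SIRT5F101L (-0.71, SE 0.10, edgeR adjusted p = 3.07e-06).

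Mlycd had the lowest p of the 7 genes between the plasmid groups. The log2 fold change of SIRT5F101L against WT was -0.32 (SE 0.10, 95% interval -0.53 to -0.11, unadjusted p = 0.00417), which did not pass after adjustment over all genes (edgeR adjusted p = 0.330). Without SIRT5F101L replicate 1 it was -0.38 and passed (edgeR adjusted p = 0.00988), in a fit where 2213 genes were called against 6 with all libraries. In the 11 other fits that left out a library, Mlycd was not called.

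Fasn (ENSMUSG00000025153, GRCm38 chr11:120805846-120824547) encodes fatty acid synthase, the cytosolic enzyme that spends malonyl-CoA to build palmitate. Its level was 181, 173, 179 and 168 CPM in Control, 303, 289, 304 and 269 CPM in WT, and 254, 285, 295 and 317 CPM in SIRT5F101L. Every plasmid library exceeded every Control library by a wide margin, and the plasmid groups covered each other. Fasn rose 1.66-fold in WT (log2 fold change 0.73, SE 0.07, edgeR adjusted p = 1.06e-08) and 1.64-fold in SIRT5F101L (0.72, SE 0.07, edgeR adjusted p = 1.42e-08). A change at least as high was found for 13.7% of all tested genes in WT and 15.2% in SIRT5F101L. With the length trend removed the rise was 0.59 in WT and 0.45 in SIRT5F101L and was still called (edgeR adjusted p = 1.19e-07 in the latter).

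Mcat (ENSMUSG00000048755, GRCm38 chr15:83546797-83563787) encodes malonyl-CoA-acyl carrier protein transacylase, which loads malonyl groups for fatty acid synthesis inside mitochondria. It held 15.5, 14.8, 16.9 and 12.8 CPM in Control, 13.6, 16.1, 16.6 and 18.7 CPM in WT, and 18.0, 13.1, 13.8 and 13.2 CPM in SIRT5F101L. All 3 groups overlapped. The log2 fold change was 0.12 in WT (edgeR adjusted p = 0.429, 95% interval -0.14 to 0.37) and -0.041 in SIRT5F101L (edgeR adjusted p = 0.790, 95% interval -0.30 to 0.21). In the annotation, 2.15% of its exon sequence is shared with Tspo, so a small part of its counts is uncertain.

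Against WT, none of the 7 genes was called in SIRT5F101L by edgeR, where 0.0421% of all genes were called, 0.0281% higher and 0.014% lower. At an unadjusted edgeR p under 0.05 there was 1 of the 7, Mlycd, beside 1701 of all 14253 genes tested. By DESeq2 with adjustment, 0 of the 7 were called. No gene of the 7 had groups that did not overlap, beside 4.02% of all tested genes. The widest intervals on the log2 scale belonged to Acsf3 (-0.41 to 0.076) and Mcat (-0.41 to 0.096), and the narrowest to Acly (-0.13 to 0.084). The plot of log2 fold changes shows all 3 comparisons.

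**Figure D2:**
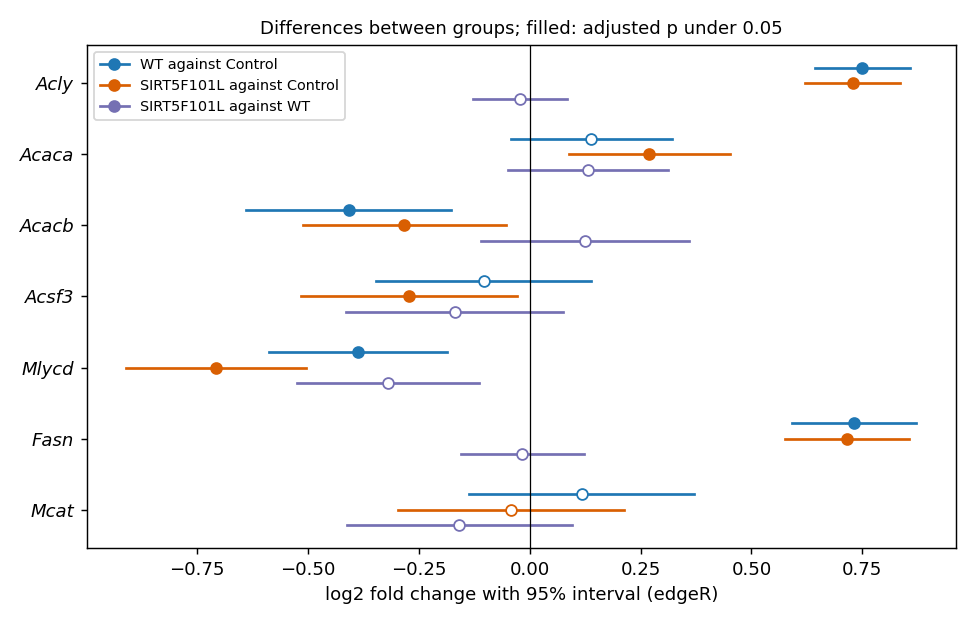
Log2 fold change of each gene with its 95% interval from the edgeR fit, for WT against Control, SIRT5F101L against Control and SIRT5F101L against WT. Filled points passed an adjusted p of 0.05. Acly and Fasn lie at 0.72 to 0.75 in both comparisons with Control, and Mlycd lies lowest, at -0.71 in SIRT5F101L.

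To compare the genes with each other, levels were divided by the longest annotated transcript. Per kilobase, the order in Control was Acly (42.4 ± 1.74 CPM per kb, SD, n = 4), Fasn (17.4 ± 0.593), Mcat (7.81 ± 0.890), Mlycd (7.71 ± 0.209), Acsf3 (7.43 ± 0.403), Acaca (6.14 ± 0.515) and Acacb (1.56 ± 0.0899). Mcat, Mlycd and Acsf3 did not differ beyond their spread, and the other neighbours did not overlap between libraries. In WT, Acly reached 71.3 ± 0.989 and Fasn 29.0 ± 1.62 CPM per kb, and in SIRT5F101L they reached 70.3 ± 0.418 and 28.6 ± 2.63. Mlycd, the fourth of the 7 in Control, was the sixth in both plasmid groups, at 5.90 ± 0.566 and 4.72 ± 0.579 CPM per kb. That place depends on the length used: per kb of merged exons Mlycd was the third in Control (7.61) and the fourth in WT (5.83) and SIRT5F101L (4.66), and per kb of the longest coding transcript it was the third, the fourth and the fifth. Acly, Fasn and Acacb kept their places under all 3 lengths. Acacb was the lowest of the 7 in all 3 groups.

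**Figure D3:**
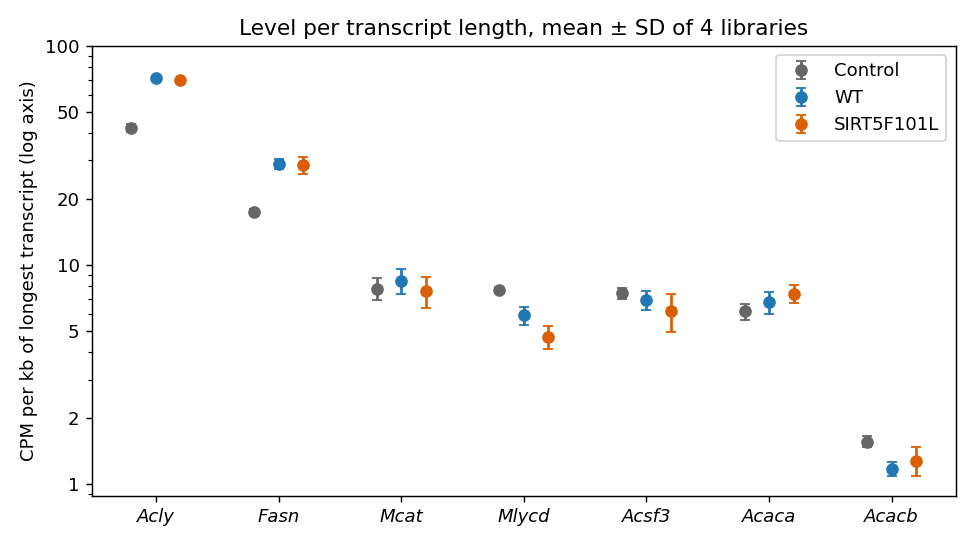
Level per kilobase of the longest annotated transcript (CPM per kb, log axis), as mean ± SD over 4 libraries for Control, WT and SIRT5F101L. Acly and Fasn stand above the other genes in all 3 groups, and Acacb lies below them, at 1.56 CPM per kb in Control.

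Ratios within a library describe how the balance between genes moved, as values with no test. The log2 ratio of Acaca to Mlycd, a producing and a removing enzyme, was -0.46 to -0.22 in Control, -0.0021 to 0.42 in WT and 0.26 to 0.97 in SIRT5F101L. It was thus higher in each plasmid library than in any Control library, by 0.52 on average in WT and 0.98 in SIRT5F101L. By construction, these differences between groups do not depend on the transcript length used, but the sign of the ratio itself does. The trend of each library on transcript length was not removed from these ratios. With it removed, the log2 fold change of SIRT5F101L against Control was 0.011 for Acaca and -0.69 for Mlycd. Acaca to Acacb was higher than Control by 0.55 and 0.56 in WT and SIRT5F101L. The ratio of Fasn to Acaca was 1.40 to 1.61 in Control, 1.96 to 2.19 in WT and 1.84 to 2.03 in SIRT5F101L. Acly to Fasn stayed within 1.15 to 1.47 in the 12 libraries, and its group means were 1.28, 1.30 and 1.30. With the length trend removed, the log2 fold change of SIRT5F101L against Control was 0.67 for Acly and 0.45 for Fasn.

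**Figure D4:**
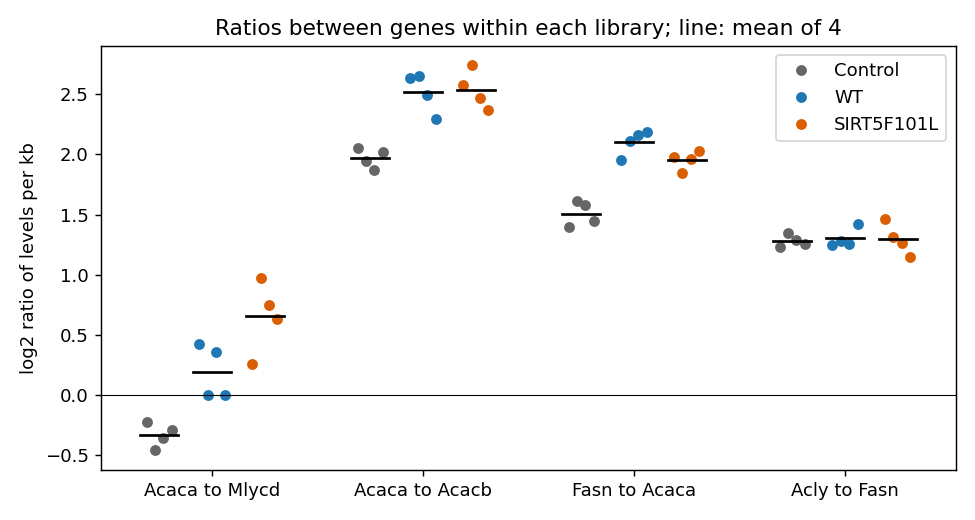
Log2 ratio of levels per kilobase within each library for 4 pairs of genes. Points are the 4 libraries of Control, WT and SIRT5F101L, and the line is their mean. Acaca to Mlycd lies below 0 in every Control library and at 0.26 to 0.97 in SIRT5F101L, while Acly to Fasn lies at 1.15 to 1.47 in all groups.

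Genes whose values were most like those of the 4 members called in both comparisons were found by the root mean square difference over 12 libraries of log2 CPM, each less the gene's Control mean. Among 9782 candidates, Acly was nearest to Idh3a, a subunit of the tricarboxylic acid cycle's isocitrate dehydrogenase (difference 0.036), and Snx9 (0.050). Fasn was nearest to Ints1 (0.040) and Rusc2 (0.045). The difference between Acly and Fasn themselves was 0.082. Mlycd was nearest to Pitx1, a hindlimb transcription factor, and Exosc5, an exosome subunit (0.093 and 0.097), and Acacb to Focad and Kif13b (0.068 and 0.077).

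Genes around the 7 were taken from 10 lists of 86 genes chosen for their place in the pathway, of which 76 were tested. In WT 17 rose and 28 fell, which is 59.2% called beside 56.8% of all genes, and in SIRT5F101L 14 rose and 37 fell, which is 67.1% beside 60.7%. Over all genes, 28.7% rose and 28.1% fell in WT, and 30.0% rose and 30.7% fell in SIRT5F101L. The counts of each list stand beside those shares and say nothing particular to a list. Among genes that supply cytosolic acetyl-CoA and NADPH, 3 of 7 tested rose in WT and 1 fell, and 3 rose and 3 fell in SIRT5F101L. Those that rose were Pgd of the pentose phosphate pathway (log2 fold change 0.82 and 0.74 in WT and SIRT5F101L), Me1, the malic enzyme (0.49 and 0.59), and Cs, citrate synthase (0.42 and 0.36). Idh1 fell in both (-0.40 and -0.42). Slc25a1, the citrate exporter that feeds Acly, was not called in WT (-0.096, edgeR adjusted p = 0.224) and fell in SIRT5F101L (-0.23, edgeR adjusted p = 0.00472), a call lost in 1 of 20 alternatives, with the length trend removed (edgeR adjusted p = 0.172). Acss2, which makes acetyl-CoA from acetate, was low, at 7.29 ± 1.03 CPM in Control (SD, n = 4), and was just called in SIRT5F101L (-0.37, edgeR adjusted p = 0.0474), a call lost in 12 of 20 alternatives. The gene G6pdx, which nearly all cells use, was listed at 0 in all 12 libraries, as were Mid1ip1, Mbtps2, Cpt1b and Hsd17b8, so a listed 0 was not read as absence.

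Genes that extend and desaturate the fatty acids made by Fasn went both ways. Of 15 tested, 3 rose and 6 fell in WT, and 3 rose and 7 fell in SIRT5F101L, with list medians of -0.12 and -0.15, so that 9 and 10 of 15 were called beside 56.8% and 60.7% of all genes. Hsd17b12, the ketoacyl reductase of elongation, rose from 98.9 ± 2.88 CPM to 194 ± 11.5 and 191 ± 12.002 (SD, n = 4), and Scd1, the stearoyl-CoA desaturase, rose from 203 ± 13.7 to 345 ± 11.6 and 363 ± 21.3. Scd2, a more abundant desaturase of the same kind, fell from 563 ± 41.9 CPM to 497 ± 20.0 and 496 ± 25.8 (-0.18, edgeR adjusted p = 0.0188, and -0.18, edgeR adjusted p = 0.0164), with groups that overlapped and a call lost in 2 of 20 alternatives in each comparison (adjusted p up to 0.0786 and 0.0680). Elovl7 also rose (1.07 and 0.93), from a low level. The polyunsaturated desaturases fell, with Fads1 at -0.49 and -0.56 and Fads2 at -0.42 and -0.50 on the log2 scale. Hacd4, a dehydratase of elongation, fell too (-0.67 and -0.61). The elongase Elovl6, which extends palmitate, was not called (-0.12, edgeR adjusted p = 0.329, and -0.00035, edgeR adjusted p = 0.998).

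Factors that regulate lipogenic genes changed in both directions. Srebf1, which encodes SREBP-1, fell from 179 ± 4.45 CPM in Control (SD, n = 4) to 143 ± 6.25 in WT and 137 ± 3.96 in SIRT5F101L (log2 fold change -0.33, edgeR adjusted p = 2.73e-05, and -0.39, edgeR adjusted p = 3.75e-06). Its plasmid groups did not overlap Control. Insig1 and Insig2, which retain the SREBP precursor in the endoplasmic reticulum, rose (0.50 and 0.41, and 0.35 and 0.40). Usf1 fell (-0.28 and -0.43), and Mlxipl, which encodes ChREBP, was at 0.522 to 0.806 CPM as group means and not called. In the list as a whole, 4 of 12 tested rose and 4 fell in WT, and 3 rose and 6 fell in SIRT5F101L. Beside these, 56.8% and 60.7% of all genes were called in either direction.

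Of the carnitine shuttle, where malonyl-CoA acts as an inhibitor, 1 of 6 tested genes rose and 1 fell in both comparisons. Over all genes, 56.8% were called in WT and 60.7% in SIRT5F101L. Cpt1a, the liver-type carnitine palmitoyltransferase 1, rose from 70.6 ± 1.48 CPM in Control (SD, n = 4) to 134 ± 4.28 in WT and 143 ± 10.3 in SIRT5F101L (log2 fold change 0.93, edgeR adjusted p = 5.27e-11, and 1.02, edgeR adjusted p = 1.12e-11). Cpt2, on the inner membrane, fell (-0.36 and -0.34). Cpt1c and Crat were not called (edgeR adjusted p of 0.0759 and 0.0783 in SIRT5F101L). Without SIRT5F101L replicate 1, or with the length trend removed, 4 of the 6 were called in that comparison. Over all genes, its calls ran from 8030 to 9179 without 1 library and from 8155 to 8892 in the other alternatives.

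Subunits and activators of AMPK, the kinase that phosphorylates and inhibits both carboxylases, were called in both directions. In WT 3 of 11 rose and 5 fell, beside 28.7% and 28.1% of all genes. In SIRT5F101L 3 rose and 6 fell, beside 30.0% and 30.7%. The catalytic subunits parted, with Prkaa1 higher (0.52 and 0.68) and Prkaa2 lower (-0.74 and -0.66) than Control. Camkk2, an upstream kinase, rose (0.41 and 0.37), as did Cab39, a partner of LKB1 (0.27 and 0.33). Of the biotin group, Btd, which recycles the cofactor that carboxylases carry, fell (-0.50 and -0.48), while Hlcs, which attaches it, was not called (-0.048 and 0.12, edgeR adjusted p = 0.746 and 0.378). Slc5a6 of the same list was not called either (-0.14 and -0.28, edgeR adjusted p = 0.421 and 0.114).

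Of the biotin-dependent carboxylases of mitochondria, 3 of 4 tested fell in both comparisons: Pccb of propionyl-CoA carboxylase (-1.27 and -1.42), Mccc2 (-0.50 and -0.66) and Pcx, pyruvate carboxylase (-0.26 and -0.28). Over all genes, 28.7% rose and 28.1% fell in WT, and 30.0% rose and 30.7% fell in SIRT5F101L. Pcca, the partner subunit of Pccb, was not called (-0.025 and -0.046, edgeR adjusted p = 0.836 and 0.691). Of the 4 genes of methylmalonyl-CoA disposal, Mmab (-0.69 and -0.77), Mcee (-0.55 and -0.83) and Mmaa (-0.52 and -0.64) fell, and Mmut, the mutase itself, rose (0.25 and 0.23). Mitochondrial fatty acid and lipoate synthesis, where Mcat acts, had 1 gene that rose and 2 that fell of 7 tested in WT, and 0 and 4 in SIRT5F101L. Cbr4 (-0.49 and -0.61) and Lias (-0.31 and -0.31) fell in both, Mecr rose in WT (0.28, edgeR adjusted p = 0.0066), and Aasdhppt fell in SIRT5F101L (-0.30, edgeR adjusted p = 0.00987).

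Of the 7 sirtuins, 1 rose and 2 fell in WT, and 3 fell in SIRT5F101L, beside 56.8% and 60.7% of all genes called. Sirt2 (-0.43 and -0.53) and Sirt6 (-0.38 and -0.58) fell in both comparisons. Sirt7 rose in WT (0.19, edgeR adjusted p = 0.0456), and Sirt4 fell in SIRT5F101L (-0.37, edgeR adjusted p = 0.0233). The call of Sirt7 was lost in 10 of 20 alternatives, with adjusted p-values of 0.0157 to 0.140, and that of Sirt4 in 4 of 20. Without SIRT5F101L replicate 1, 5 sirtuins were called in that group, while calls of all genes ran from 8030 to 9179 without 1 library. Sirt3, the main mitochondrial deacetylase, was not called (0.24 and 0.23, edgeR adjusted p = 0.112 and 0.113). Between the plasmid groups, 0 of the 76 tested genes of these 10 lists were called by edgeR and 0 by DESeq2. In edgeR, 5 of the 76 had an unadjusted p under 0.05, beside 1701 of all 14253 genes tested. Without SIRT5F101L replicate 1, 7 of 77 were called, beside 15.2% of all genes in that fit.

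**Figure D5:**
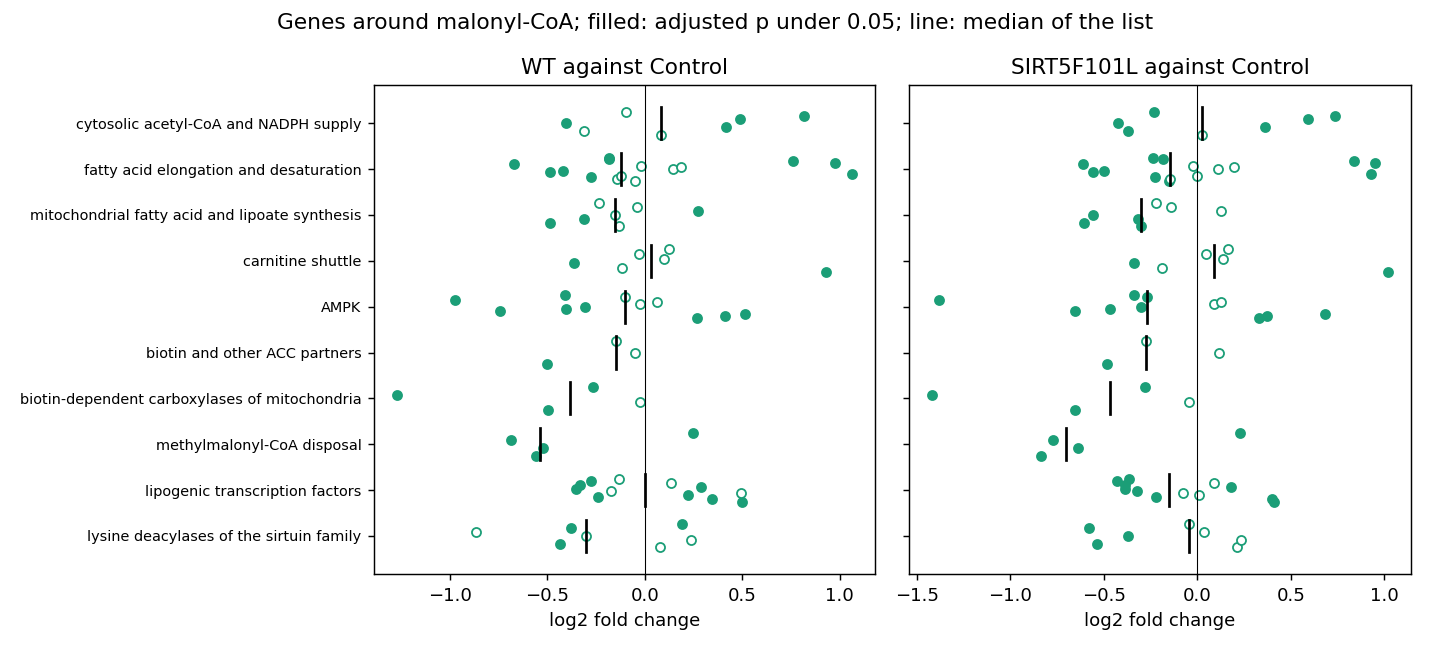
Log2 fold change of each tested gene in 10 lists around malonyl-CoA, for WT against Control and SIRT5F101L against Control. Filled points passed an edgeR adjusted p of 0.05, and the line is the median of the list. Most lists hold genes on both sides of 0, and the median of methylmalonyl-CoA disposal is -0.54 in WT and -0.70 in SIRT5F101L.

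Cell type markers moved with the plasmid groups as well. In both comparisons 8 of 10 chondrocyte markers fell, among them Comp (-3.26 and -3.44) and Col2a1 (-2.01 and -2.36), beside 28.1% and 30.7% of all genes called lower. Hapln1 rose in both (0.25 and 0.18), and Acan rose in WT (0.47) and was not called in SIRT5F101L (0.10, edgeR adjusted p = 0.243). In bulk RNA, fewer cells of a type and less RNA per cell cannot be told apart. Because Fasn, Acly and Scd1 are also abundant in fat cells, 7 adipocyte markers were read. Adipoq was at 0.423 ± 0.306 CPM in Control (SD, n = 4), listed at 0 in every WT library and at 0.0484 ± 0.0575 CPM in SIRT5F101L, and Plin1, Cidec and Lep were at 0.222 CPM or less as group means. Cfd was at 0.615, 0.135 and 0.112 CPM in Control, WT and SIRT5F101L as group means, and Retn at 0.0406, 0.0546 and 0.162 CPM. Fabp4, which is also found in macrophages and endothelium, was at 24.5 ± 0.960, 31.998 ± 2.59 and 30.4 ± 5.67 CPM. Of the 7 adipocyte markers it was the 1 tested. It was called higher in WT (0.39, edgeR adjusted p = 0.00405) and in SIRT5F101L (0.31, edgeR adjusted p = 0.0153). The summed level of the list was 23.9 to 27.2 CPM in Control, 29.7 to 35.3 in WT and 24.7 to 38.1 in SIRT5F101L. Macrophage and leukocyte markers summed to 157 to 190 CPM over 7 genes in Control, 85.1 to 96.0 in WT and 83.8 to 108 in SIRT5F101L, with 6 and 5 of 6 tested called lower and Itgam listed at 0. Fibroblast and synovium markers summed to 1340 to 1613, 1744 to 1992 and 1913 to 2166 CPM in the same order. Of the 4 tested, Prg4 (0.41 and 0.54), which made up most of that sum, and Pdgfra (0.39 and 0.62) rose, and Thy1 fell (-1.22 and -1.21). Dpt was at 1.16 ± 0.444 CPM in Control (SD, n = 4) and at or under the floor of 3 counts in each plasmid library. The sums were 17.0 to 23.8, 4.11 to 4.64 and 3.51 to 5.17 CPM for 4 osteoblast markers, at most 3.04 CPM for 4 endothelial markers and at most 7.81 CPM for 4 muscle markers. The part of cell composition in the changes of the 7 genes was not tested.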

How the data were processed

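Libraries were made from poly(A) RNA and read in pairs of 150 bp, per the labels' protocols. Each deposited file holds raw counts by Ensembl gene ID, and the submitters' processing notes name FastQC 0.11.9, HISAT2 2.2.1, HTSeq 2.0.2, DESeq2 1.38.3 and the build GRCm39 (mm39). The annotation release and strand setting are not given in the sources used here. Symbols were paired with 52029 of 57010 IDs through a supplied table. Lengths, exon overlaps and coordinates came from GENCODE M21 on GRCm38, and copies from BLAST 2.17.0.

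Counts were tested in edgeR 4.0.16 (R 4.3.3) after TMM scaling and filtering with filterByExpr by group, in 1 quasi-likelihood fit of 12 libraries with a mean per group and 9 residual degrees of freedom. Tests were 2-sided. A standard error is the log2 fold change divided by the square root of F, and intervals are at 95%. The count of 3 taken as the floor was worth 0.120 to 0.195 CPM and covers counting error only. The pipeline was tested on simulated data. No library was identical to another.

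Alternatives were RLE and upper-quartile scaling, 2 other filters, a robust prior, DESeq2 1.42.0, fits of the 8 libraries compared, a loess trend on transcript length (span 0.5) as an offset, and each library left out. Merged exon length for ratios, and other lengths for the order per kb, were added after seeing the data. The members and lists were chosen with earlier results of these data known. Genes were named by a rule: the members, Sirt5, up to 4 genes per list with the lowest adjusted p against Control, and the 2 nearest genes for each member called in both comparisons. Col2a1, Comp, Slc25a1, Acss2, Elovl6, Elovl7, Fads2, Mlxipl, Sirt3, Scd2, Gm5182, the markers and the genes listed at 0 were named in addition, after their values were seen.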

Additional observations from a re-analysis of the deposited data

Results flagged for a closer look

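A single library lying apart from its group, by the ratio of its gap to the range of the group, was found in 5 of the 63 groups of 4 values screened, where chance gives about 3.15. Mcat was at 18.0 CPM in SIRT5F101L replicate 1, against 13.1 to 13.8 in the other libraries with that label. The slope between log2 level and log2 transcript length was 0.586 in the same library, against 0.726 to 0.748. Sirt5 was at 1.23 CPM in SIRT5F101L replicate 2, against 0.481 to 0.602. The summed level of chondrocyte markers was 7998 CPM in Control replicate 2, against 9715 to 10013. The summed level of osteoblast markers was 4.11 CPM in WT replicate 4, against 4.56 to 4.64.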

How the results depend on the processing

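Acly, Fasn and Mlycd kept their direction and their calls against Control in all 20 alternatives, and so did Acacb in WT. The number of the 7 genes called in SIRT5F101L against Control was 4 to 6 over the alternatives, because Acacb, Acsf3 and Acaca lost their calls in some. With the length trend removed, Acaca in WT was at -0.0025 and Mcat in SIRT5F101L turned to 0.091. Mcat in SIRT5F101L ran from -0.16 to 0.020 when a library was left out, and Fasn between the plasmid groups from -0.068 to 0.041. The cause was not tested. Over all genes, calls between the plasmid groups numbered 354 with no filter, 38 by DESeq2, 18 with the length trend removed, and 2 with a robust prior or only the 8 libraries compared. Without 1 library that count ran from 0 to 2213, the latter without SIRT5F101L replicate 1, and the members called from 0 to 1. Sirt5 in SIRT5F101L against Control was -0.011 with upper-quartile scaling and ran from -0.31 to 0.18 when a library was left out.

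The count called in the biotin list was 1 or 2 in both comparisons with Control. By construction, ratios of levels per kilobase move with the length used. With the longest coding transcript the log2 ratio of Acaca to Mlycd was -0.79, -0.27 and 0.19 in Control, WT and SIRT5F101L, and with merged exons it was -1.16, -0.63 and -0.17. Merged exons gave 1.26, 1.81 and 1.83 for Acaca to Acacb, 2.23, 2.83 and 2.67 for Fasn to Acaca, and 1.15 and 1.17 for Acly to Fasn in Control and WT. No paired analysis was possible because the labels give no replicate numbers, and those used here only name libraries in the order of their records. Low counts limit the reading of Sirt5, with 1 to 19 per library, and their cause was not tested.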
